A study of Mus musculus with 10 samples.

Results

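Tuft cells are rare chemosensory cells of the intestinal epithelium. They sense luminal metabolites through taste-type receptors, a G protein cascade and the cation channel Trpm5, and they depend on the transcription factor Pou2f3. Their known products are the cytokine Il25, which engages type 2 immune cells, acetylcholine, prostaglandins and cysteinyl leukotrienes. The 9 genes described here, Dclk1, Trpm5, Pou2f3, Il25, Avil, Ptgs1, Sh2d6, Ltc4s and Alox5, were taken by name from the 55487 genes of the expression table, and each was present once. The rule that picked them out of the table used their names alone, and the set was put together with earlier results of these data known.

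Intestinal epithelial cells (IECs) were released with EDTA from colons of C57BL/6J mice, and RNA was sequenced in 5 wild type (WT) libraries and 5 libraries of RhoB-/- mice, homozygous knockouts of the small GTPase RhoB. No treatment is named for these samples. The labels call the libraries replicates and do not say whether each is a separate mouse, so p-values measure the spread between libraries. The study's mice were 6 to 8 weeks old unless stated otherwise. WT males were purchased and the RhoB-/- line was made at another centre, so genotype and origin of the mice cannot be told apart. The deposited values are TPM, transcript abundances that are scaled for gene length and library, keep no sequencing depth and leave the counting error of each value unknown. Between 20261 and 21344 genes had a TPM above 0 in each library, and the share of TPM from mitochondrial genes was 17.5% to 26.5% in WT and 10.3% to 22.4% in RhoB-/- libraries. Rhob itself was 171 to 389 TPM in WT libraries and 0.09 to 0.57 TPM in RhoB-/- replicates 1 to 4. In the library labelled RhoB-/- replicate 5, Rhob stood at 110.9 TPM, and without this library the number of tuft cell markers called higher was 2 (Avil and Sh2d6) rather than 4. The pan-epithelial gene Epcam was 969 to 1639 TPM over the 10 libraries. In RNA of mixed cells, a change in the number of tuft cells and a change in RNA per tuft cell cannot be told apart.

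The question was whether tuft cell transcripts differed between WT and RhoB-/- colonic epithelium. Of the 9 markers, 4 were called higher in RhoB-/- mice and 0 were called lower. For 8 of the 9 markers (all but Il25), every RhoB-/- library exceeded the median of the WT libraries, and the RhoB-/- means were 1.63 to 2.97 times the WT means for these 8 genes. The share of all genes that met this rule was not counted, so the count of 8 alone does not set the markers apart. Genotypes were compared by limma on log2(TPM + 1) over the 12870 genes whose TPM averaged 1 or more, which held 6 of the markers, and calls were made at a Benjamini-Hochberg adjusted p below 0.05 over all genes tested. Sh2d6, Alox5, Avil and Trpm5 were called higher, Dclk1 and Ltc4s were not called, and 0 of the 6 were called lower. The filter averaged all 10 libraries, and Alox5 passed it only through its RhoB-/- values (WT mean 0.918 TPM), which favours a higher call. Over all genes tested, 7.73% were called higher and 13.5% were called lower. The median log2 fold change was 0.79 for the 6 markers and -0.13 for all genes tested. Pou2f3, Ptgs1 and Il25 were below the TPM filter and were compared by an exact permutation test. For Sh2d6 and Ptgs1 every RhoB-/- library exceeded every WT library. Among all genes such separation in this direction was found for 5.97% of those in the fit and for 1.26% of those below the filter.

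**Figure D1:**
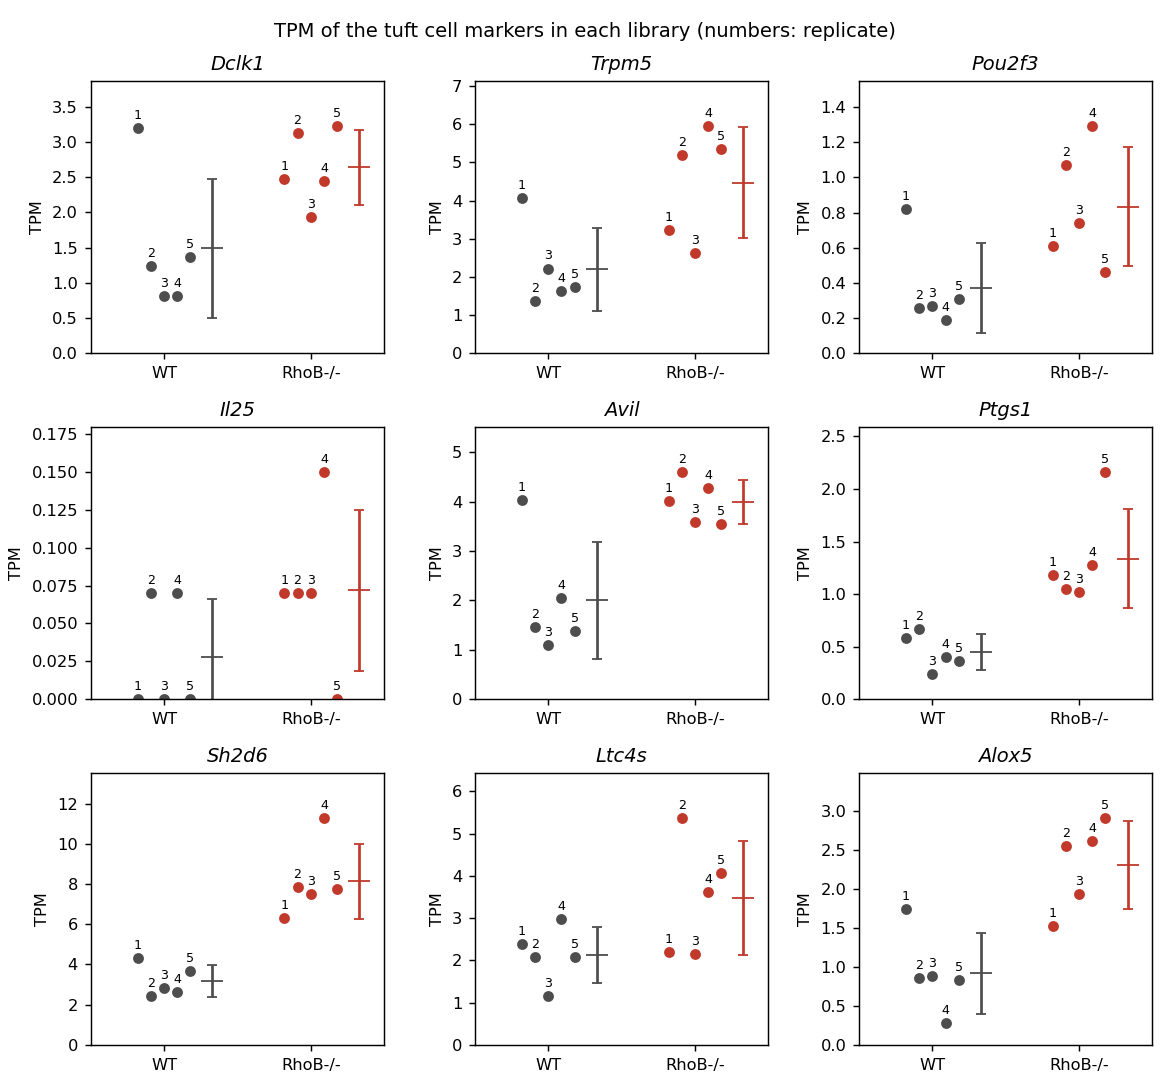
TPM of each tuft cell marker (y axis, linear from 0) in the 5 WT (grey) and 5 RhoB-/- (red) libraries, where each point is a library numbered by replicate and the bar beside the points is the mean with its SD, cut at 0. WT replicate 1 lies among the RhoB-/- libraries for Dclk1, Trpm5, Pou2f3, Avil and Alox5, and the groups do not overlap for Sh2d6 and Ptgs1.

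All 9 markers were of low abundance, whereas the median gene of the fit had a mean of 11.9 TPM. Mean levels in WT mice were highest for Sh2d6 (3.17 ± 0.787 TPM, SD, n = 5), followed by Trpm5, Ltc4s and Avil (2.20, 2.13 and 2.01 TPM), then Dclk1 (1.49), Alox5 (0.918), Ptgs1 (0.45), Pou2f3 (0.37) and Il25 (0.028). The levels of Trpm5, Ltc4s and Avil lay within 1 SD of each other. In RhoB-/- mice Sh2d6 was again highest (8.14 ± 1.86 TPM, SD, n = 5) and Il25 lowest (0.072 TPM), and Trpm5, Avil and Ltc4s (4.47, 4.01 and 3.48 TPM) differed by less than the SD of Ltc4s (1.36 TPM). Summed over the 9 markers, the level was 9.49 to 11.7 TPM in WT replicates 2 to 5, 21.1 TPM in WT replicate 1 and 21.6 to 32.9 TPM in the RhoB-/- libraries. WT replicate 1 was thus just under the lowest RhoB-/- library and apart from its own group. It was the highest WT library for 6 of the 9 markers. Within the fit this held for all markers but Ltc4s, against 6.67% of all genes tested.

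Of the structural and signalling proteins, Sh2d6, an SH2 domain adaptor that is little studied outside tuft cells, had the largest log2 fold change of the 6 markers in the fit. Sh2d6 (ENSMUSG00000052631, minus strand of chromosome 6, 72513641 to 72521707, GRCm38) had a TPM of 4.30, 2.45, 2.81, 2.61 and 3.66 in WT replicates 1 to 5 and of 6.32, 7.84, 7.51, 11.3 and 7.75 in RhoB-/- replicates 1 to 5. All RhoB-/- values were above all WT values. The log2 fold change was 1.13 (standard error 0.16, adjusted p = 7.28e-04, limma with Benjamini-Hochberg adjustment), and Sh2d6 was called under each of the 18 other settings tried.

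Avil encodes advillin, an actin-bundling protein of the villin family found in the long microvilli of tuft cells. Avil (ENSMUSG00000025432, plus strand of chromosome 10, 127000709 to 127020994) was 4.04, 1.47, 1.10, 2.04 and 1.38 TPM in the WT libraries and 4.01, 4.60, 3.60, 4.27 and 3.55 TPM in the RhoB-/- libraries. The RhoB-/- values were tightly grouped, and WT replicate 1 was the only WT library to reach them. The log2 fold change was 0.81 (standard error 0.21, adjusted p = 0.0218, limma) and 1.01 without WT replicate 1 (adjusted p = 0.00137, limma). The call was lost at an adjusted p of 0.0550, 0.0520 and 0.0501 when WT replicate 2, WT replicate 5 or RhoB-/- replicate 1 was left out, and at 0.0614 with no filter on low TPM (limma). Avil shares 9423 bases with Tsfm on the opposite strand. For Tsfm the log2 fold change was -0.23 (limma, adjusted p = 0.330).

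Dclk1, a doublecortin-like kinase and the most widely used tuft cell marker of the mouse gut, lies on the plus strand of chromosome 3 (ENSMUSG00000027797, 55242364 to 55539068). Its TPM was 3.20, 1.24, 0.82, 0.82 and 1.36 in the WT libraries and 2.48, 3.13, 1.94, 2.44 and 3.22 in the RhoB-/- libraries. WT replicate 1 was above 4 of the 5 RhoB-/- libraries, while the other 4 WT libraries were below all of them. The log2 fold change of 0.61 did not pass the threshold (standard error 0.23, 95% confidence interval 0.11 to 1.11, adjusted p = 0.0773, limma). Without WT replicate 1 it was 0.82 with an adjusted p of 0.00913 (limma). Quantile normalization also brought it past the threshold (0.77, adjusted p = 0.0440, limma).

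Trpm5, the channel that depolarises taste and tuft cells after receptor activation, lies on the minus strand of chromosome 7 (ENSMUSG00000009246, 143069153 to 143094642). It was 4.06, 1.38, 2.22, 1.62 and 1.73 TPM in the WT libraries and 3.22, 5.18, 2.63, 5.94 and 5.36 TPM in the RhoB-/- libraries. WT replicate 1 again overlapped the RhoB-/- range and the other WT libraries did not. The log2 fold change was 0.78 (standard error 0.24, adjusted p = 0.0379, limma). The call was fragile. The adjusted p was above 0.05 in 8 of the 10 fits that left out 1 library (0.0503 to 0.0984, limma), and stayed below it without WT replicate 1 (0.0115) or without RhoB-/- replicate 3 (0.0168). It was 0.0969 with no filter on low TPM and 0.0817 with the replicate number as a block (limma). Trpm5 shares 1845 bases with Tssc4 on the opposite strand, whose log2 fold change was -0.34 (limma, adjusted p = 0.0465), opposite in sign to Trpm5. Reads were aligned in an orientation mode, but whether strand was used in counting is not stated, so how reads in the shared stretch were assigned is not known.

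Pou2f3, the POU domain factor required for tuft cells to form, was below the TPM filter. Pou2f3 (ENSMUSG00000032015, minus strand of chromosome 9, 43123939 to 43210369) was 0.82, 0.26, 0.27, 0.19 and 0.31 TPM in the WT libraries and 0.61, 1.07, 0.74, 1.29 and 0.46 TPM in the RhoB-/- libraries. The same pattern as for Dclk1 was seen, with WT replicate 1 inside the RhoB-/- range and the other 4 WT libraries below it. The means were 0.37 ± 0.255 and 0.834 ± 0.34 TPM (SD, n = 5 each, exact permutation test, two-sided p = 0.0556). Over the genes below the filter the adjusted p was 0.563, and the limma fit with no filter on low TPM gave an adjusted p of 0.136. The exact p was 0.0159 without WT replicate 1, 0.0317 without RhoB-/- replicate 5 and 0.0556 to 0.0952 without each of the other 8 libraries.

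Il25, which encodes the cytokine that tuft cells use to signal to innate lymphoid cells, was close to the detection limit. Il25 (ENSMUSG00000040770, plus strand of chromosome 14, 54932695 to 54935837) was listed at 0 in WT replicates 1, 3 and 5 and in RhoB-/- replicate 5. The other values were 0.07 TPM in 2 WT and 3 RhoB-/- libraries and 0.15 TPM in RhoB-/- replicate 4. No difference was detectable at this level (exact permutation test, two-sided p = 0.357).

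The remaining 3 markers make lipid mediators. Ptgs1, the constitutive cyclooxygenase, starts prostaglandin synthesis, Alox5 starts leukotriene synthesis, and Ltc4s conjugates the leukotriene intermediate with glutathione. Ptgs1 (ENSMUSG00000047250, plus strand of chromosome 2, 36230426 to 36252272) was 0.58, 0.67, 0.24, 0.40 and 0.36 TPM in the WT libraries and 1.18, 1.05, 1.02, 1.28 and 2.16 TPM in the RhoB-/- libraries. The groups were fully separated, and here WT replicate 1 lay within the WT range. The exact permutation test gave the smallest two-sided p that 5 against 5 allow (0.00794), and an adjusted p of 0.279 over the 15244 genes below the filter that had a TPM above 0. In the limma fit with no filter on low TPM, Ptgs1 had a log2 fold change of 0.68 and an adjusted p of 0.0235.

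Alox5 (ENSMUSG00000025701, minus strand of chromosome 6, 116410077 to 116461178) was 1.74, 0.86, 0.88, 0.28 and 0.83 TPM in the WT libraries and 1.52, 2.55, 1.93, 2.61 and 2.91 TPM in the RhoB-/- libraries. WT replicate 1 exceeded only RhoB-/- replicate 1. The log2 fold change was 0.81 (standard error 0.21, adjusted p = 0.0215, limma), and the adjusted p was 0.0518 without RhoB-/- replicate 5 and 0.0609 with the replicate block (limma). Ltc4s (ENSMUSG00000020377, minus strand of chromosome 11, 50236461 to 50238616) was 2.38, 2.09, 1.15, 2.97 and 2.08 TPM in the WT libraries and 2.20, 5.37, 2.14, 3.61 and 4.07 TPM in the RhoB-/- libraries. Its groups overlapped broadly, and RhoB-/- replicates 1 and 3 lay within the WT range. The log2 fold change was 0.49 (standard error 0.23, 95% confidence interval -0.0043 to 0.98, adjusted p = 0.139, limma), and Ltc4s was not called under any of the 18 other settings.

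Without WT replicate 1, the RhoB-/- libraries lay above all remaining WT libraries for 7 of the 9 markers, that is, for all but Ltc4s and Il25. Among all genes this held for 6.25% of those in the fit and for 1.61% of those below the filter. In that fit 5 of the 6 markers were called higher, against 6.19% of all genes tested. This library was singled out for its high marker values, so leaving it out favours higher calls. Leaving out WT replicate 2, WT replicate 5, RhoB-/- replicate 1 or RhoB-/- replicate 5 instead gave 2 called markers each, and the count was 3 or 4 for the other 5 libraries. With WT replicate 1 and RhoB-/- replicate 5 both left out, a choice made after the data were seen, the same count was 5. With the study's numeric thresholds, p below 0.05 without adjustment and more than a 1.5-fold change, 5 of the 6 markers were higher, against 6.37% of all genes tested. Only the thresholds were the study's, since p and fold change here came from limma on log2(TPM + 1).

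The sequences just before their starts were read for the octamer bound by POU factors (ATGCAAAT, on either strand). RefSeq windows of 250 bases on GRCm38.p6 were found for 7 markers. Pou2f3 and Il25 had no entry. Dclk1 had 2 windows, before an upstream start and a start within the gene. The octamer was in 0 of these 8 windows and in 1.60% of all 32851 windows. With 1 mismatch allowed, it was found in 1 of the 8 windows, that of Avil, and in 16.6% of all windows. The windows of the 4 called markers are shown to let the Avil matches be set beside the others, 5′ to 3′ on the strand of the gene, with capitals for the octamer at 1 mismatch. The RefSeq start of Sh2d6 lies inside the gene span given above. They lie at chr10:127000459-127000708 (plus strand, Avil), chr6:72520037-72520286 (minus strand, Sh2d6), chr7:143094643-143094892 (minus strand, Trpm5) and chr6:116461179-116461428 (minus strand, Alox5).
Avil: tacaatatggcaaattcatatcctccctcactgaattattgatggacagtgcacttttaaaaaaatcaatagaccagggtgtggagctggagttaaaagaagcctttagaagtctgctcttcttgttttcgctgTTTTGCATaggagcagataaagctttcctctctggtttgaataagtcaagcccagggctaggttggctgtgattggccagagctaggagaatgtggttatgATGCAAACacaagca
Sh2d6: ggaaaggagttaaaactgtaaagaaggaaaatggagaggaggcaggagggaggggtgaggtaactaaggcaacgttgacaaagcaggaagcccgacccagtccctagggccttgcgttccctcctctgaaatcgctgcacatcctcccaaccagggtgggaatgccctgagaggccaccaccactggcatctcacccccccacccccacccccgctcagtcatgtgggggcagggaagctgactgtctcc
Trpm5: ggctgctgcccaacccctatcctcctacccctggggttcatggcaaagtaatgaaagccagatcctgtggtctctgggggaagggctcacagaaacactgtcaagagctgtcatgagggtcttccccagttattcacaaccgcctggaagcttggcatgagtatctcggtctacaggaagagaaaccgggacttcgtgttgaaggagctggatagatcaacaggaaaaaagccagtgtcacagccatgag
Alox5: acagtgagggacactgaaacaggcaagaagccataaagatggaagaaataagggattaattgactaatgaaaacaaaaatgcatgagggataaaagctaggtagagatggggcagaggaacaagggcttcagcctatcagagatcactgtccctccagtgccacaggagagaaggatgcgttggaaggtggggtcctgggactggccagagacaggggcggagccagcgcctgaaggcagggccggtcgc
In the Avil window the matches begin 116 and 15 bases before the start, the first of them on the opposite strand. The Avil window held 42% G and C, and those of Sh2d6, Trpm5 and Alox5 held 59.2%, 52.8% and 52.8%, with a median of 52.4% over all windows.

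Within each genotype, the variation of the markers from library to library was compared. Each marker in the fit was compared with the mean z-score of the other 5, on log2(TPM + 1) after removal of the genotype mean. Trpm5 had a Pearson r of 0.86 and a Spearman rho of 0.72 over the 10 libraries (permutation within genotype, p = 0.0166 and 0.0354, adjusted p = 0.0650 and 0.0889 over the 6 markers). Dclk1 had 0.83 and 0.63 (permutation p = 0.0223 and 0.0470, adjusted p = 0.0650 and 0.0889). Alox5 had an r of 0.74 and a rho of 0.71 (permutation p = 0.0433 and 0.0386, adjusted p = 0.0650 and 0.0889). For Sh2d6 they were 0.66 and 0.66 (permutation p = 0.0383 and 0.0593, adjusted p = 0.0650 and 0.0889), for Avil 0.69 and 0.38 (permutation p = 0.0597 and 0.257, adjusted p = 0.0717 and 0.309), and for Ltc4s 0.42 and 0.35 (permutation p = 0.199 and 0.349, adjusted p = 0.199 and 0.349). None of these relations passed the adjusted threshold. With the 2 libraries farthest from the median left out of the correlation, r was 0.74 for Dclk1, 0.71 for Trpm5, 0.60 for Ltc4s, 0.59 for Sh2d6, 0.45 for Alox5 and 0.17 for Avil. The genotype means and z-scores still included those 2 libraries, so these values do not show how far the agreement holds without them. The fall for Avil, from 0.69 to 0.17, was the largest of the 6. WT replicate 1 was one of the 2 libraries left out for each marker, and without it alone the median r fell from 0.71 to 0.48.

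The genes in the fit whose variation within genotype was most like that of the markers were Rgs13 (r = 0.94), Pik3r5 (0.91), Matk (0.91), Syt7 (0.90), Il17rb (0.88), Sh2d7 (0.88), Mycbp (0.85), Gm12580 (0.84), Gm27857 (0.83) and Cdkn1c (0.82), over 10 libraries. Of these 10, Rgs13, Matk, Il17rb and Sh2d7 are in the lists of tuft cell genes used below. With WT replicate 1 left out of the correlation, r was 0.71 to 0.86 for those 4 genes. The genotype means and the marker score still included that library, so these values are not free of its pull. Gm27857 was 66.5 TPM in WT replicate 1, 5.25 TPM in RhoB-/- replicate 4 and 0 in the other 8 libraries. Syt7, Il17rb, Mycbp, Gm12580, Gm27857 and Cdkn1c were not called between the genotypes, with log2 fold changes of 0.11, 0.15, 0.05, 0.17, -0.69 and -0.26. Not all genes of the tuft cell lists varied with the markers. Among those called higher between the genotypes, r over the 10 libraries ranged from -0.62 for Espn to 0.94 for Rgs13.

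**Figure D2:**
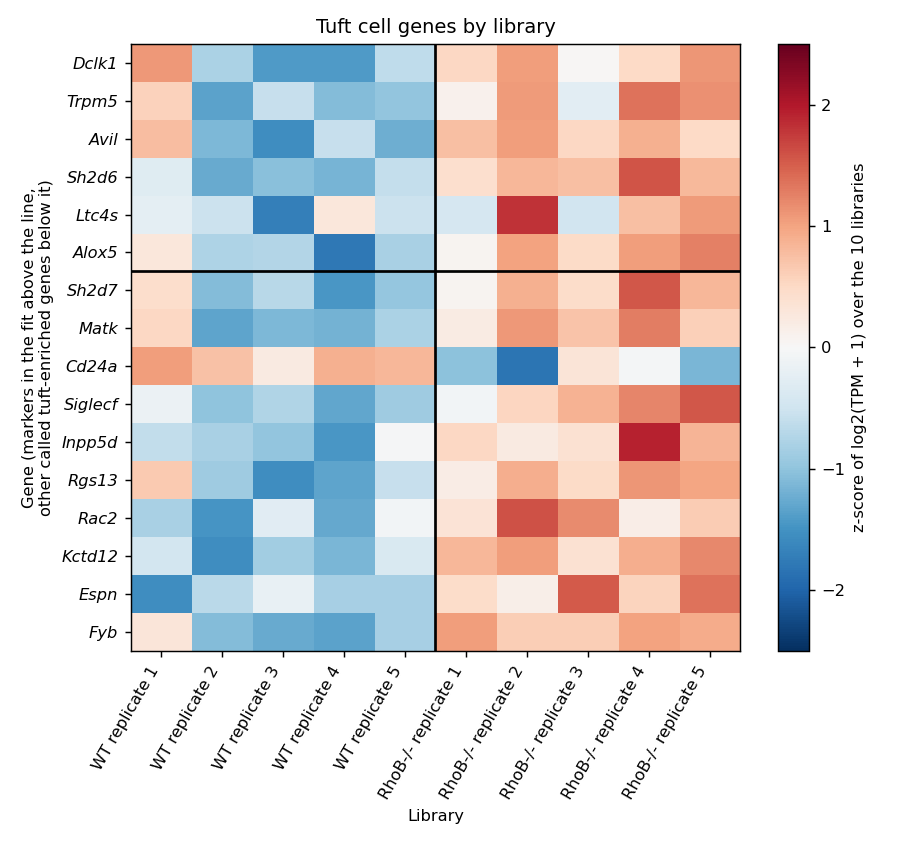
Each row is a gene and each column a library, coloured by the z-score of log2(TPM + 1) over the 10 libraries, with the 6 markers in the fit above the horizontal line and the 10 other tuft-enriched genes that were called below it. WT replicate 1 is warm in most marker rows, unlike WT replicates 2 to 5, and Cd24a runs opposite to the other rows.

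Genes linked to tuft cells or their pathways were read from 5 lists of 65 genes in all. Of these, 40 were in the fit, 12 were called higher, 4 were called lower and 24 were not called. That is 30% called higher, against 7.73% of all genes tested, and 4 of 40 called lower, against 13.5%. The lists also hold genes of other cells and were compiled with earlier results known. Retnlb and Il4ra of the type 2 list are among the 12, so 30% is not a share of genes particular to tuft cells. Among 24 genes enriched in tuft cells, 19 were in the fit, and 9 of them were called higher and 1 lower, with a median log2 fold change of 0.50. Of those called higher, Siglecf and Inpp5d passed the TPM filter only through their RhoB-/- values (WT means 0.512 and 0.968 TPM), which favours higher calls. Inpp5d, an inositol phosphatase, was 0.40 to 1.73 TPM in the WT libraries and 2.08 to 5.80 TPM in the RhoB-/- libraries, with no overlap (log2 fold change 1.05, standard error 0.24, adjusted p = 0.0117, limma). Rac2, a GTPase of blood cells, and Matk, a kinase that inhibits Src family members, had log2 fold changes of 0.95 and 0.91. Rgs13, a regulator of G protein signalling, had 0.86, Fyb, an adaptor protein, 0.80, and Espn, the actin bundler espin, 0.77. Sh2d7, which also encodes an SH2 domain protein, and Siglecf, a sialic acid-binding receptor, had 0.73 each. Kctd12 had 0.59 (limma, adjusted p-values of 0.00263 to 0.0246 for these 8 genes from Rac2 to Kctd12). Cd24a, a surface glycoprotein also present on crypt cells, fell from 233 ± 17.3 TPM (WT) to 164 ± 35.3 TPM (RhoB-/-), with a log2 fold change of -0.52 (limma, adjusted p = 0.0241). Over the 5 lists, 9 of the 12 genes called higher were called in each of the 10 fits that left out 1 library. The exceptions were Spib, Sh2d7 and Rgs13. Sh2d7 lost its call without WT replicates 2, 4 or 5 or RhoB-/- replicates 4 or 5 (adjusted p from 0.0506 to 0.0599, limma). Rgs13 lost it without WT replicates 2 or 4 or RhoB-/- replicates 4 or 5 (0.0519 to 0.0624, limma), and Cd24a without WT replicates 2, 4 or 5 or RhoB-/- replicates 1 or 5 (0.0511 to 0.0624, limma).

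**Figure D3:**
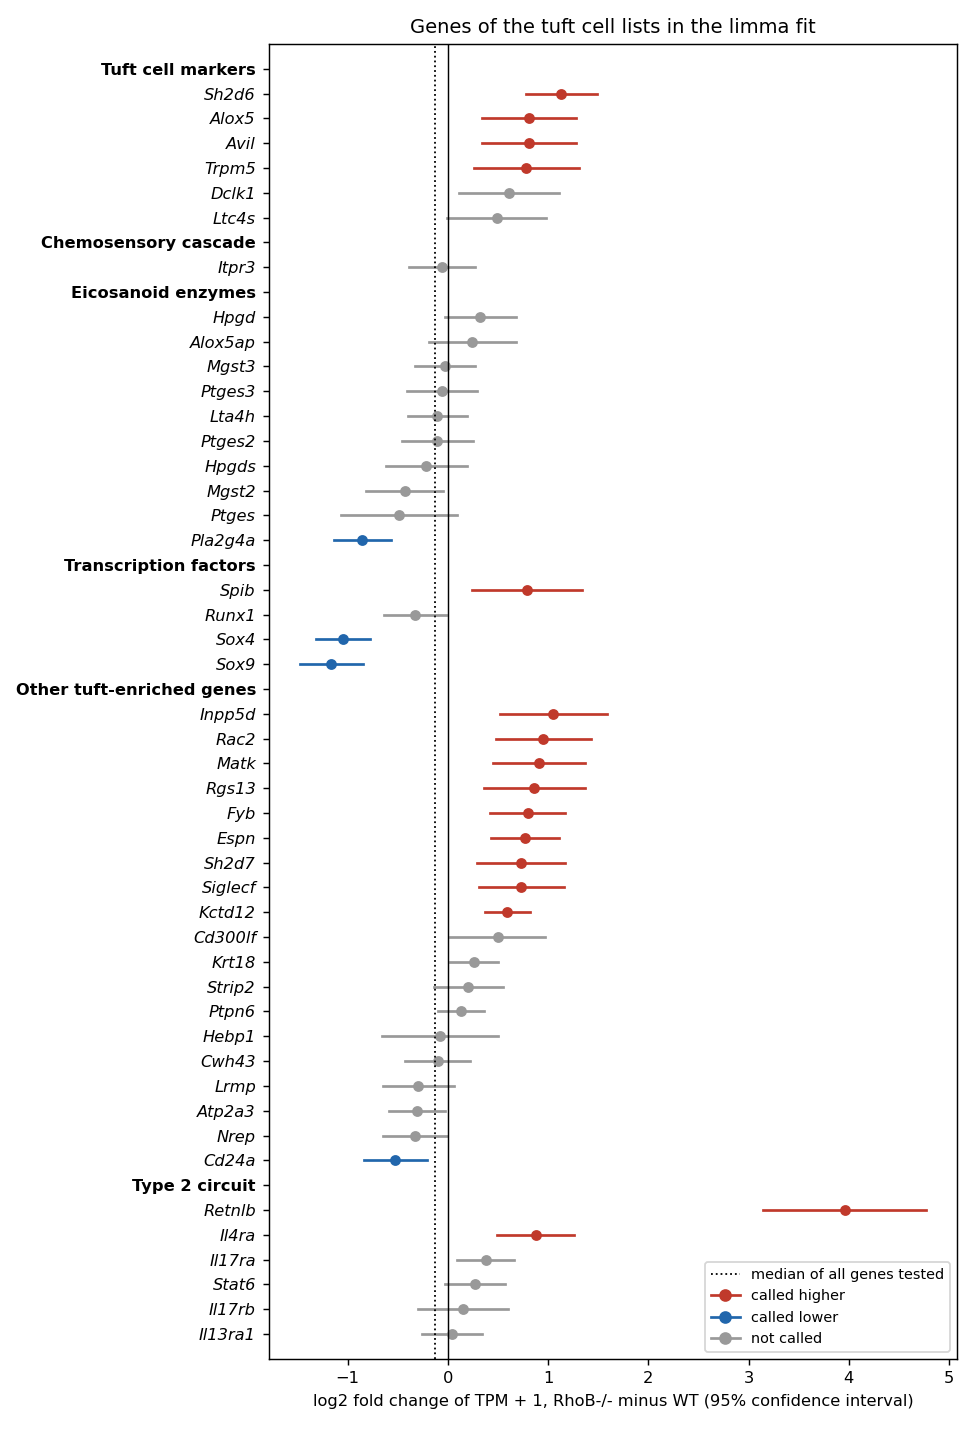
Log2 fold change of TPM + 1 between RhoB-/- and WT mice (x axis) with its 95% confidence interval for each gene of the tuft cell lists in the fit, where red and blue mark genes called higher and lower at an adjusted p below 0.05, grey marks genes not called, and the dotted line is the median of all genes tested (-0.13). The markers and the tuft-enriched genes lie mostly to the right, the eicosanoid enzymes around 0, and Sox4 and Sox9 to the left.

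Of 10 genes of the chemosensory cascade, 1 was in the fit, the calcium release channel Itpr3, which absorptive cells also use (36.2 ± 7.13 and 34.6 ± 5.89 TPM, SD, n = 5, log2 fold change -0.06, adjusted p = 0.804, limma). Gnat3, the alpha subunit gustducin, was 0.10 to 0.69 TPM in WT and 1.08 to 1.60 TPM in RhoB-/- mice, with no overlap (exact permutation test, two-sided p = 0.00794, adjusted p = 0.279). Plcb2, the phospholipase of the cascade, was 0.54 to 1.19 TPM in WT and 0.93 to 1.44 TPM in RhoB-/- mice (exact permutation p = 0.0635). Ffar3, a receptor for short-chain fatty acids, was 0.06 to 0.81 TPM and 0.31 to 1.23 TPM (exact permutation p = 0.135). Sucnr1, the succinate receptor, was named after its values were seen. It was 0 to 0.14 TPM in WT and 0.41 to 0.82 TPM in RhoB-/- mice, the other gene of this list without overlap (exact permutation p = 0.00794, adjusted p = 0.279). Such separation was found for 1.26% of all genes below the filter. WT and RhoB-/- means were 0.396 and 0.476 TPM for Gng13, 0.368 and 0.406 for Tas1r3, and 0.056 and 0.008 for Tas1r1. For Gnb3 they were 0 and 0.068 TPM, and for Chat 0.138 and 0.412 TPM. In this order the exact permutation p-values were 0.722, 0.595, 0.119, 0.0476 and 0.0317. Adjusted over the genes below the filter, no exact p passed 0.05 for any gene, since 0.279 was the smallest that was reached. At an unadjusted p below 0.05, 9.19% of those genes passed.

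Of the 13 other eicosanoid enzymes, 10 were in the fit, 0 were called higher and 1 was called lower, where all genes tested gave 7.73% and 13.5%, so the count does not set this list apart. The gene called lower was Pla2g4a, the cytosolic phospholipase that releases arachidonic acid, at 18.2 ± 1.99 TPM in the WT libraries and 9.73 ± 1.88 TPM in the RhoB-/- libraries (SD, n = 5, log2 fold change -0.85, adjusted p = 0.00113, limma) and no overlap. Such separation towards lower values was found for 8.55% of all genes tested. The abundant members Mgst3, Mgst2 and Hpgd, which are widely used outside tuft cells, showed values of -0.03, -0.43 and 0.32 on the log2 fold change scale and were not called (limma, adjusted p = 0.907, 0.101 and 0.165). Alox5ap and Hpgds, the partner of Alox5 and the prostaglandin D synthase of tuft cells, were named after their values were seen. Alox5ap was 1.51 ± 0.611 and 1.93 ± 0.444 TPM, and Hpgds was 1.54 ± 0.32 and 1.21 ± 0.478 TPM (SD, n = 5 each). Their log2 fold changes were 0.25 and -0.21 (adjusted p = 0.402 and 0.426, limma).

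Of 6 further transcription factors used in tuft cell differentiation, 4 were in the fit. Spib, an Ets factor of tuft and lymphoid cells, was 0.54 to 2.10 TPM in WT and 1.54 to 4.21 TPM in RhoB-/- mice (log2 fold change 0.79, adjusted p = 0.0447, limma). It lost its call in 7 of the 10 fits that left out 1 library (adjusted p from 0.0675 to 0.109, limma) and kept it without WT replicate 1 or RhoB-/- replicates 1 or 2. Sox4 was 10.2 ± 1.63 and 4.39 ± 0.518 TPM and Sox9 was 23.2 ± 4.43 and 9.77 ± 1.62 TPM (SD, n = 5 each). They were lower in RhoB-/- mice without overlap (log2 fold changes -1.04 and -1.16, adjusted p = 1.73e-04 and 2.49e-04, limma), and are also expressed in crypt progenitors. Runx1 was not called (log2 fold change -0.33, adjusted p = 0.118, limma).

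The type 2 circuit, through which Il25 and interleukin-13 link tuft cells, lymphoid cells and goblet cells, was read from 12 genes. Of these, 6 were in the fit and 2 were called higher, beside 7.73% of all genes tested. Retnlb, a goblet cell product that type 2 cytokines induce, was 66.0 to 118 TPM in WT replicates 2 to 5 and 298 TPM in WT replicate 1. It was 1208 to 2884 TPM in RhoB-/- libraries (log2 fold change 3.96, standard error 0.37, adjusted p = 2.91e-05, limma). Il4ra, the shared receptor chain for interleukin-4 and interleukin-13, was 7.38 ± 0.79 and 14.8 ± 4.35 TPM (SD, n = 5, log2 fold change 0.88, adjusted p = 0.00557, limma). Il13ra1, the receptor subunit paired with it, was 25.5 ± 3.78 and 26.4 ± 4.78 TPM, and Stat6, the transcription factor downstream, 28.1 ± 5.15 and 33.9 ± 4.33 TPM, neither of which was called. Il13 was listed at 0 in all 10 libraries, Il5 was above 0 in 1 library and Il4 in 2.

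Several of these genes are used by blood cells too, among them Alox5, Ltc4s, Ptgs1, Inpp5d, Rac2, Fyb, Siglecf and Spib. Of the 11 immune cell markers in the fit, 7 were called higher and 0 lower, beside 7.73% and 13.5% of all genes tested. The TPM filter averaged all 10 libraries. Among the 7, Mcpt1, Mcpt2, Cd8a and Cd68 passed it only through their RhoB-/- values (WT means 0.418, 0.114, 0.832 and 0.988 TPM). Such entry favours higher calls, so the filter raises this count. Of 10 lymphocyte markers, 4 were in the fit and all 4 were called higher, with a summed level over the 10 genes of 4.94 to 10.2 TPM in WT and 17.6 to 30.7 TPM in RhoB-/- libraries. The pan-leukocyte gene Ptprc was 1.24 to 2.65 TPM in WT and 3.72 to 9.64 TPM in RhoB-/- libraries. Of 10 mast cell markers, 3 were in the fit and the proteases Mcpt1 and Mcpt2 were called higher (log2 fold changes 3.02 and 2.04). The summed mast cell level was 12.5 to 18.6 TPM and 15.0 to 48.9 TPM, most of it in WT from Kit. Fcer1a, Ms4a2 and Mcpt4 were at 0 in all WT libraries and above 0 in 2, 4 and 3 RhoB-/- libraries, at no more than 0.60 TPM. The tryptase genes did not show this. Tpsb2 averaged 0.28 TPM in WT and 0.342 TPM in RhoB-/- libraries (exact permutation p = 0.659). Tpsab1 was 0.03 TPM in WT replicate 3 and 0 in all other libraries. Kit, which pacemaker cells and some epithelial cells also express, was 15.6 ± 2.54 TPM in WT and 11.7 ± 2.36 TPM in RhoB-/- libraries and was not called (SD, n = 5, log2 fold change -0.39, adjusted p = 0.0812, limma). The mast cell genes Cpa3 (0 to 0.05 against 0.04 to 0.66 TPM) and Hdc (0 to 0.05 against 0.13 to 0.45 TPM) were below the filter, with exact permutation p-values of 0.0238 and 0.00794 (adjusted p = 0.414 and 0.279). Of 10 macrophage markers, 4 were in the fit and Cd68 was called higher (log2 fold change 1.19), while Lyz2, Cd14 and C1qa were not (0.81, 0.23 and 0.10). The macrophage sums were 17.6 to 30.8 TPM and 22.6 to 47.3 TPM, most of it in WT from Cd14 (14.4 to 27.1 TPM). None of the 6 eosinophil markers was in the fit, and their sum was at most 1.16 TPM in any library. The part of immune cells in the values of the shared genes was not tested. In WT replicate 1, where the tuft cell markers were high, Ptprc was 2.42 TPM, within the range of the other WT libraries. The lymphocyte sum of this library was the highest of the WT libraries (10.2 TPM, against 4.94 to 9.62 TPM). Its macrophage sum was the lowest (17.6 TPM), of which Cd14 made up 14.4 TPM.

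The other epithelial lists moved in different directions. Of 9 enteroendocrine markers in the fit, 6 were called lower and 0 higher, with Insl5 at a log2 fold change of -2.18, and the summed level was 454 to 629 TPM in WT and 188 to 298 TPM in RhoB-/- libraries. Of 10 goblet cell markers 3 were called higher, of 10 colonocyte markers 6 were called higher, and of 10 crypt markers 3 were called lower, beside 7.73% called higher and 13.5% called lower among all genes tested. Of 6 pan-epithelial markers, 1 was called higher and the summed level was 9244 to 10718 TPM and 8806 to 14074 TPM. The difference between tuft cell markers and these lists was not tested.

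**Figure D4:**
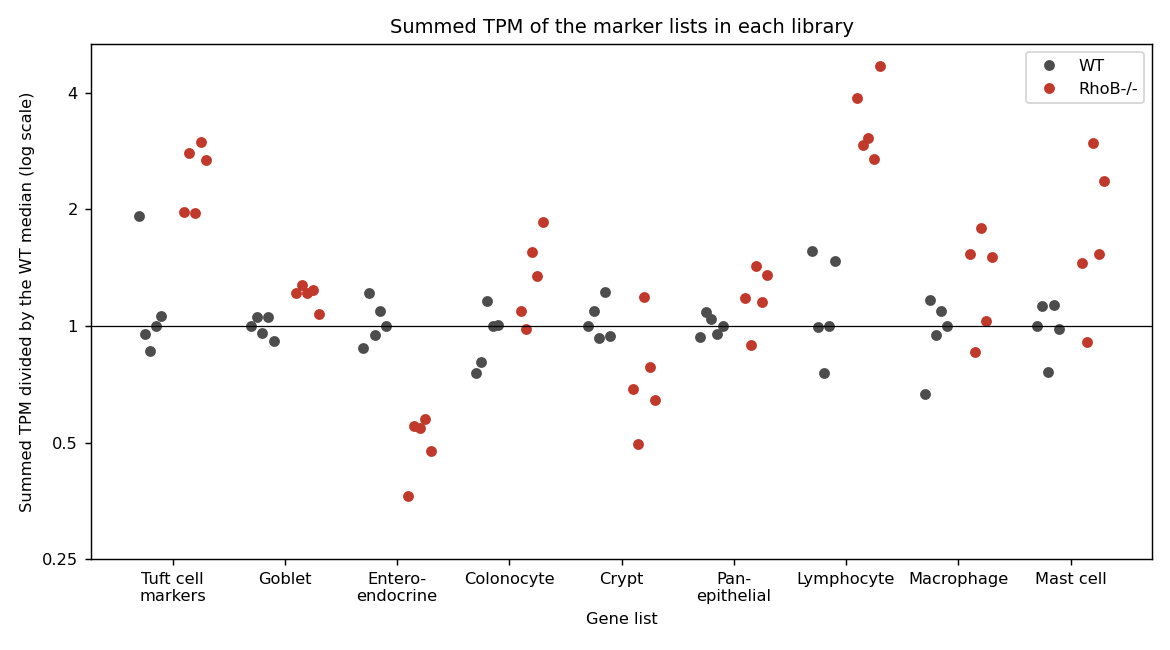
Summed TPM of each marker list divided by the WT median of that list (y axis, log scale), with 1 point per library in WT (grey) and RhoB-/- (red) mice. The tuft cell marker sum is 21.1 TPM in WT replicate 1, the single grey point near the red ones, and the enteroendocrine sums of the RhoB-/- libraries are all below those of the WT libraries.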

How the data were processed

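The 10 libraries of colonic IECs, 5 of each genotype, were analysed with groups and replicate numbers from the sample labels. The authors used SeqPrep and Sickle for trimming, HISAT2 for alignment, StringTie for assembly and RSEM for gene quantification of paired-end reads, and deposited TPM with 2 decimals. The submitters' processing notes name GRCm38.p6 and edgeR. HISAT2 was run in an orientation mode. Tool versions and whether counting used strand are not given in the sources used here.

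limma 3.58.1 in R 4.3.3 (lmFit, eBayes with an intensity trend) was fitted to log2(TPM + 1) for 12870 genes averaging 1 TPM or more. The average ran over the 10 libraries, so a gene could pass through the group where it was high. Fold changes are on this scale, which understates changes of low genes. Genes below the filter were compared by the exact permutation test over 252 labelings, two-sided. Correlations used 100000 permutations within genotype. Count tests were not run because TPM keeps no counts. Gene positions are from GENCODE M21 (GRCm38) and promoter windows from RefSeq (GRCm38.p6).

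The markers and lists were chosen with earlier results of these data known, and the lists were compiled by hand. A gene of these lists is not reported here and was left out of their counts and of the genes most like the markers. Named genes are the 9 markers, Rhob, the called genes of each tuft cell list or, where fewer than 3 were called, its most abundant genes up to 4 in all, and the 10 genes most like the markers. Others were named after their values were seen, or to show the levels of other cell types. The alternatives tried were a pseudocount of 0.1, no filter, a replicate block, centring on the median gene, quantile normalization, removal of mitochondrial genes, no trend, the study's thresholds and each library left out, and, added after seeing the data, WT replicate 1 and RhoB-/- replicate 5 left out together.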

Additional observations from a re-analysis of the deposited data

Results flagged for a closer look

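Of 52 groups of 5 values, those of Rhob, the markers and the called genes of the tuft cell lists, 8 had a library far from the other 4. The rule flags about 1 group in 20 only for independent, normally distributed values. Its rate over all genes was not counted, so the count of 8 has no background to be set against. Of these 8, 5 were in WT replicate 1. WT replicate 1 stood apart for Dclk1 (3.20 TPM), Pou2f3 (0.82 TPM), Matk (3.67 TPM), Fyb (2.18 TPM) and Retnlb (297.5 TPM), each time above the other WT libraries. These genes are not independent of each other, so their flags are not separate events. The mitochondrial share of TPM was 26.5% in this library, the highest share of the 10. Its part in these values was not tested.

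RhoB-/- replicate 5 stood apart for Rhob (110.9 TPM) and for Ptgs1 (2.16 TPM). Without it, Ptgs1 was 1.02 to 1.28 TPM in RhoB-/- libraries, still above all WT values. RhoB-/- replicate 4 stood apart for Inpp5d (5.80 TPM).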

How the results depend on the processing

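Each of the 6 markers in the fit kept a positive log2 fold change under all 18 other settings of the fit. The number called higher, 4 as reported, was 2 to 5 when each library was left out in turn. The cause of these changes was not tested. With the replicate number as a block it was 2 (Avil and Sh2d6). Same-numbered WT and RhoB-/- libraries are different mice, their deviations correlated at -0.0874 to 0.0720, and WT replicate 3 alone correlated best with its own number, so the numbers were not treated as pairs. The block changed the count of the other tuft cell lists called higher from 12 to 9.

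The count of genes of the other tuft cell lists called higher was 12 as reported and 9 to 14 with each library left out. The count called lower rose from 4 to 8 without mitochondrial genes, a step that also changes which genes pass the filter. Immune markers called lower were 0 as reported, 1 without mitochondrial genes and 0 to 1 with each library left out. Other epithelial markers called lower were 9 as reported, 14 without mitochondrial genes, 5 without WT replicate 1 and RhoB-/- replicate 5 together, and 5 to 16 with each library left out.

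The difference in mean TPM of Pou2f3 was 0.464 as reported and 0.35 to 0.577 with each library left out. Its exact permutation p was 0.0556 as reported, 0.0159 to 0.0952 with each library left out and 0.0317 on log2(TPM + 0.1), where the difference was 1.04. In the limma fit with no filter its adjusted p was 0.136. The median correlation of the markers within genotype was 0.71 as reported and 0.48 to 0.79 with each library left out. TPM gives no depth, so values below the filter, Il25 above all, carry an unknown counting error.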
